A study of Astyanax mexicanus with 8 samples.

Results

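Fibulins, fibrillins, latent TGF-beta binding proteins and a lysyl oxidase, all proteins of the elastic fibre, were followed in spheroids of liver-derived cells of the Mexican tetra Astyanax mexicanus. The genes were taken by name (efemp1, efemp2a, efemp2b, fbln1, fbln5, fbn1, fbn2b, ltbp1, ltbp3 and loxa, case ignored) wherever the deposited table lists them. Of the 10 names, 9 were found, each on 1 of the 27420 listed genes, and no row is named efemp1. Only 18766 of the listed genes carry a name, so a gene may be present without being found. The names were selected on earlier results of these libraries. For efemp2b these were its log2 slopes on seeding density, so its values by density are given as a description without a test. Which measured values chose the other names is not recorded, so the p-values given for those genes may rest on the values that chose them.

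The study compared CFL cells, from cave fish that the sample titles call Pachon, with SFL cells, from surface fish, both labelled wild type and 28 days. Cells of each line were seeded in ultra-low-attachment wells at 10000, 25000, 50000 or 100000 per well in complete medium at 27 °C, and formed spheroids freely. Each line gave 4 libraries, 1 per density, and all values are the authors' TPM (transcripts per 1000000, estimated reads divided by transcript length and scaled to the same total in every library). Each form is represented by a single line, so line and origin cannot be told apart, and a spheroid's final size is not given in the labels. Nothing states that libraries came from separate cultures, so p-values measure the spread between these libraries only.

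Elastic fibres have a core of cross-linked elastin laid on a scaffold of microfibrils. Fibrillins polymerise into the microfibrils, fibulins help to bring the elastin precursor and its cross-linking enzyme together on them, and latent TGF-beta binding proteins (LTBPs) tether the inactive growth factor to the same scaffold. In mammalian liver such fibres are made mainly by fibroblastic cells of the portal tract and by activated stellate cells, and they accumulate in fibrosis.

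Depth cannot be recovered from TPM and is unknown here. Between 17819 and 19408 genes were above 0 in a library. The 10 most abundant genes held 15.3% to 19.3% of all TPM in CFL and 10.96% to 14.9% in SFL. Scaling factors by the median of ratios (each library's typical level relative to the average library) were 1.14, 1.14, 0.778 and 0.912 in CFL from 10000 to 100000 cells, and 1.19, 1.15, 0.843 and 0.938 in SFL in the same order. A typical gene therefore read lower at the 2 larger seedings of both lines. Most hepatocyte markers were low. Of 13 found, 10 were under 1 TPM in every CFL library and 8 in every SFL library, ttr was listed at 0 in all 8 and hnf4a reached at most 0.31 TPM. The other 5 were at 1 TPM or more in every SFL library, with rbp4 at 226 to 304, fgb at 34.3 to 43.8, tfa at 4.21 to 9.95, apoa1a at 3.11 to 5.22 and apoa2 at 1.41 to 4.49 TPM. In CFL fgb and tfa were at 1.73 to 6.42 and 1.16 to 4.77 TPM. Summed marker levels also differed by line. The fibroblast and stellate list (15 genes) summed to 112 to 223 TPM in CFL and 197 to 273 TPM in SFL, most of it col1a2. Within that list pdgfra was at 5.66 to 20.4 TPM in CFL and 0.06 to 0.25 TPM in SFL, and pdgfrb at 2.62 to 10.55 TPM in CFL and 0.22 to 1.16 TPM in SFL. Other genes of the list ran the other way. col1a1a was at 3.28 to 6.48 TPM in CFL and 25.4 to 58.4 TPM in SFL. dcn was at 1.65 to 6.03 TPM and 15.8 to 28.3 TPM, and desma at 0.25 to 0.6 TPM and 3.01 to 6.03 TPM, in the same order. The smooth muscle list (8 genes) summed to 74.7 to 99.0 TPM in CFL and 374 to 466 TPM in SFL. The hepatocyte list summed to 5.49 to 13.8 TPM in CFL and 279 to 352 TPM in SFL, the endothelial list (9 genes) to 17.5 to 33.7 TPM and 124 to 195 TPM, and the bile duct list (7 genes), mostly the keratins krt8 and krt18a.1, to 759 to 1137 TPM and 6679 to 9217 TPM. The endothelial sum was mostly kdrl and kdr, while cdh5, pecam1 and egfl7 reached at most 0.03, 0.08 and 0 TPM. In the bile duct list sox9a ran against the sum, at 22.55 to 31.8 TPM in CFL and 0.96 to 2.08 TPM in SFL. The bile duct marker epcam reached at most 0.09 TPM. Macrophage and leukocyte genes (8) summed to under 3 TPM in every library of both lines. The part of these differences in the results below was not tested, and in bulk RNA fewer cells of a type and less RNA per cell cannot be told apart.

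efemp2a (ENSAMXG00000038651) was the most abundant of the 9 genes in all 8 libraries. Both efemp2 genes are fish counterparts of EFEMP2, whose product fibulin-4 recruits lysyl oxidase to nascent elastic fibres in mammals. efemp2a stood at 353, 384, 239 and 228 TPM in CFL at 10000, 25000, 50000 and 100000 cells, and at 115, 94.9, 79.8 and 95.9 TPM in SFL in the same order. Every CFL library lay above every SFL library. It ranked 404th of all listed genes by mean TPM in CFL and 1331st in SFL, and it made up 81.3% to 88.7% of the summed TPM of the 9 genes in CFL and 50.8% to 71.97% in SFL.

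efemp2b (ENSAMXG00000030143) ran the other way between the lines. It stood at 9.72, 7.56, 2.40 and 2.55 TPM in CFL and at 69.25, 23.7, 17.7 and 15.8 TPM in SFL, with every SFL library above every CFL library. The ratio of efemp2a to efemp2b was therefore 36.3, 50.7, 99.75 and 89.6 in CFL and 1.66, 4.01, 4.51 and 6.08 in SFL. Reads of such related genes may have been divided between them in the authors' estimation, for which RSEM is named without its settings in the sources used here.

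The other fibulins were lower. fbln5 (ENSAMXG00000021074) encodes fibulin-5, which links elastin to the microfibril and to integrins in mammals. It stood at 15.01, 10.3, 9.79 and 16.3 TPM in CFL and at 18.3, 6.82, 6.61 and 8.74 TPM in SFL, so the lines overlapped, and each line was lowest at the middle densities. fbln1 (ENSAMXG00000015259), whose product fibulin-1 binds fibronectin and basement membranes, was listed at 0 in 6 libraries and at 0.03 TPM in CFL at 25000 cells and in SFL at 100000 cells.

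Of the fibrillins, fbn2b (ENSAMXG00000021616) was the more abundant. Its mammalian counterpart FBN2 builds microfibrils mainly during development. fbn2b stood at 7.94, 6.93, 2.09 and 2.79 TPM in CFL and at 11.6, 13.98, 4.11 and 4.51 TPM in SFL. In each line both larger seedings lay below both smaller ones, and the lines overlapped. FBN1 (ENSAMXG00000032050), the main fibrillin of mature microfibrils in mammals, stood at 1.72, 0.78, 0.29 and 0.44 TPM in CFL and at 0.33, 0.30, 0.24 and 0.39 TPM in SFL. Its mean over the 8 libraries was 0.561 TPM, under the filter of a mean of 1 TPM, so it was not tested with the others.

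The pair of LTBP genes differed in opposite ways between the lines. LTBP3 (ENSAMXG00000001998) stood at 35.4, 34.1, 13.7 and 26.5 TPM in CFL and at 2.35, 2.13, 0.48 and 1.11 TPM in SFL, with no overlap. ltbp1 (ENSAMXG00000005223) stood at 6.63, 7.21, 2.31 and 3.95 TPM in CFL and at 9.88, 10.1, 5.49 and 6.80 TPM in SFL, higher in SFL at each of the 4 densities though the ranges overlapped. The products of both genes bind latent TGF-beta in mammals. LTBP3 was 4.74 to 6.72 times as abundant as ltbp1 in CFL libraries, whereas in SFL ltbp1 was 4.20 to 11.4 times as abundant as LTBP3. The ratio of 11.4 rests on LTBP3 at 0.48 TPM at 50000 cells. loxa (ENSAMXG00000018503), named after the lysyl oxidase that cross-links elastin and collagen, was listed at 0 in all 8 libraries.

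**Figure D1:**
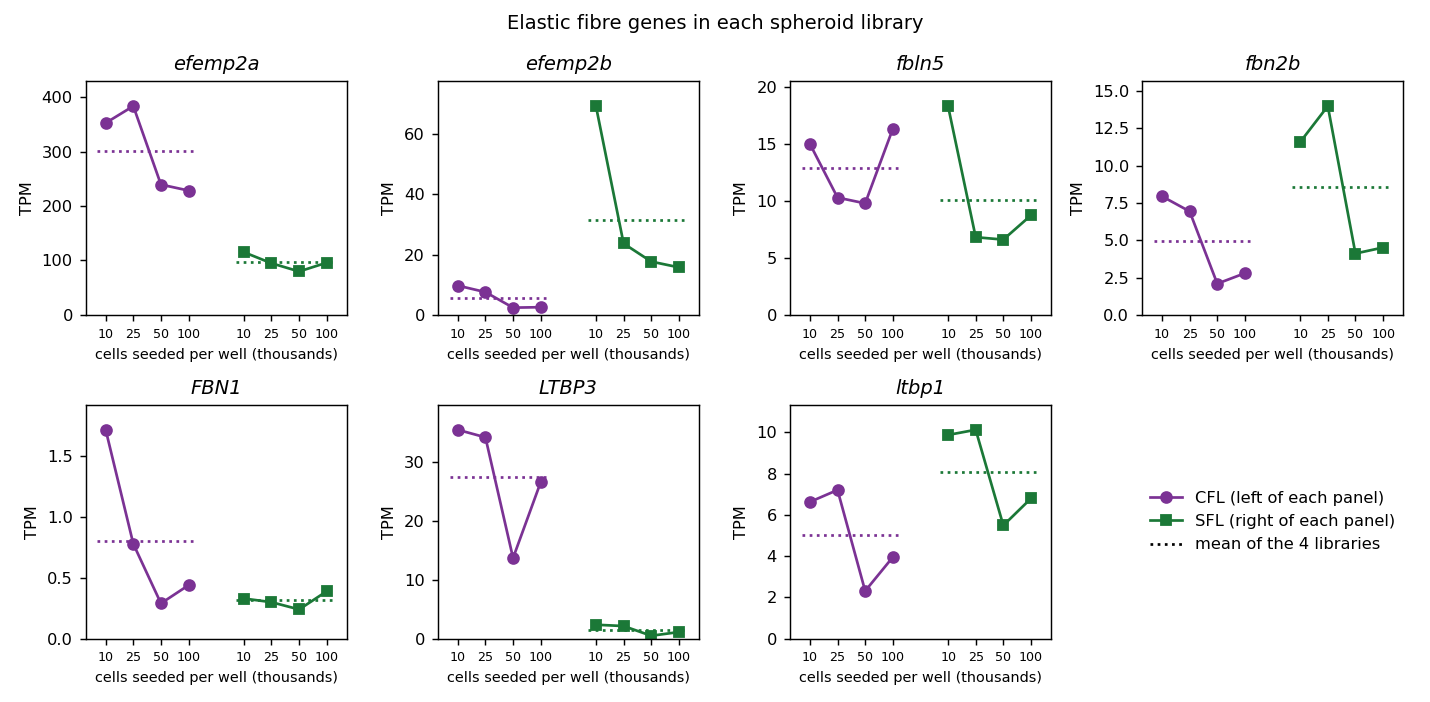
TPM of 7 of the 9 elastic fibre genes in each library (vertical axis, from 0, a separate scale in each panel) against cells seeded per well, with CFL on the left and SFL on the right of each panel. Lines join libraries of a line and dotted lines mark its mean; efemp2a and LTBP3 are higher in CFL, efemp2b is higher in SFL with its top value of 69.25 TPM at 10000 cells, and fbn2b is lower at the 2 larger seedings of both lines.

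Ordered by mean TPM, the genes in CFL ran efemp2a, LTBP3, fbln5, efemp2b, ltbp1, fbn2b, FBN1, fbln1 and loxa. Their means were 301 ± 78.6, 27.4 ± 9.98, 12.9 ± 3.3, 5.56 ± 3.67, 5.03 ± 2.30, 4.94 ± 2.93 and 0.808 ± 0.642 TPM for the first 7 (SD, n = 4, which here contains the effect of density). The ranges of efemp2b, ltbp1 and fbn2b overlapped each other, and those of LTBP3 and fbln5 did too, although LTBP3 was above fbln5 in each of the 4 libraries. In SFL the order was efemp2a, efemp2b, fbln5, fbn2b, ltbp1, LTBP3, FBN1, fbln1 and loxa. The means there were 96.5 ± 14.5, 31.6 ± 25.3, 10.1 ± 5.55, 8.54 ± 4.99, 8.08 ± 2.29, 1.52 ± 0.878 and 0.315 ± 0.0624 TPM (SD, n = 4). The ranges of fbln5, fbn2b and ltbp1 overlapped, and so did those of efemp2b and fbln5. LTBP3 was second in CFL and sixth in SFL, the largest change of place between the lines.

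The first comparison, CFL against SFL, tested these differences across all genes. With line and log2 density as terms, LTBP3 and efemp2a were higher and efemp2b was lower in CFL, and fbln5, fbn2b and ltbp1 did not pass. LTBP3 had the largest difference, 3.49 on the log2(TPM + 1) scale (SE 0.29, limma adjusted p = 1.73e-05), higher in CFL at all 4 densities and by 15.1, 16.0, 28.5 and 23.9 times in TPM from 10000 to 100000 cells. The ratio of 28.5 rests on 0.48 TPM in SFL at 50000 cells. efemp2a was higher in CFL by 1.61 (SE 0.14, limma adjusted p = 2.06e-05), again at all 4 densities, by 2.38 to 4.04 times. efemp2b differed by -2.23 (SE 0.23, limma adjusted p = 5.65e-05) and was 3.13 to 7.37 times as abundant in SFL. These 3 of 6 tested genes compare with 58.9% of the 13783 tested genes called in either direction (27.6% higher, 31.3% lower in CFL), so the share called is near the background. The median difference of the 6 was -0.12, beside -0.04 over all tested genes.

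For ltbp1 and fbn2b the call depended on how density was treated, on the scaling and on single libraries. ltbp1 differed by -0.64 (SE 0.25, limma adjusted p = 0.0536) and fbn2b by -0.67 (SE 0.29, limma adjusted p = 0.0749). Both were lower in CFL at all 4 densities, by -0.44 to -0.97 for ltbp1 and by -0.49 to -0.92 for fbn2b. With libraries paired by density as a replicate block, both passed, with limma adjusted p of 0.00196 and 0.00117, and 5 of the 6 genes were then called, 2 higher and 3 lower, beside 71.2% of all genes (33.5% higher, 37.7% lower). Both also passed after median-of-ratios scaling (limma adjusted p of 0.0137 and 0.0269), where 63.1% of all genes were called (31.7% higher, 31.4% lower). fbln5 differed by 0.40 (SE 0.30, limma adjusted p = 0.281), with a 95% interval of -0.29 to 1.08. It was lower in CFL at 10000 cells, by -0.27, and higher at the other 3 densities, by 0.50 to 0.83. Its difference was 0.73 without the SFL library at 10000 cells and 0.13 without the CFL library at 100000 cells (limma adjusted p of 0.0314 and 0.707). In the unfiltered table FBN1 differed by 0.40 (SE 0.18, limma adjusted p = 0.117).

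**Figure D2:**
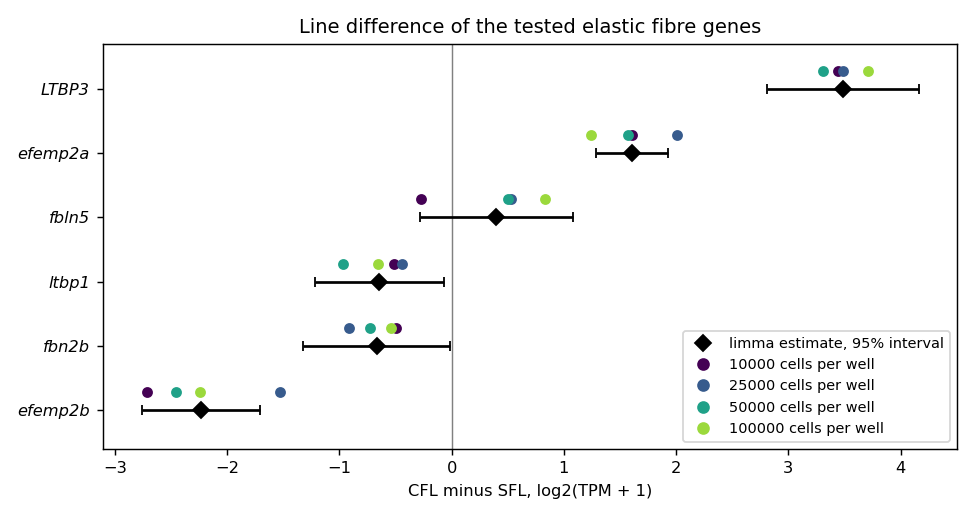
CFL minus SFL on the log2(TPM + 1) scale (horizontal axis) for the 6 tested genes (vertical axis). Black diamonds give the limma estimate with its 95% interval and coloured points the difference at each seeding density; all 4 points lie right of 0 for LTBP3 and efemp2a, left of 0 for efemp2b, fbn2b and ltbp1, and on both sides for fbln5.

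The second comparison set the 2 larger seedings (50000 and 100000 cells) against the 2 smaller ones (10000 and 25000 cells), averaged over the lines. fbn2b, LTBP3, ltbp1 and efemp2a were lower at the larger seedings, and fbln5 did not pass. The size of the falls has to be read against the whole table, because the median difference over all 13783 genes was -0.30 on the log2 scale in the deposited TPM and 0.04 once scaled by the median of ratios. The 2 libraries of a line on each side served as replicates although their densities differ, and the split into sides was made with earlier results of these libraries known.

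fbn2b fell most of the 5 genes tested. It averaged 2.44 TPM at the larger and 7.44 TPM at the smaller seedings of CFL, and 4.31 TPM at the larger and 12.8 TPM at the smaller seedings of SFL. The difference was -1.33 (SE 0.12, limma adjusted p = 0.00102, lower in both lines), or -1.03 relative to the median gene, and -0.99 after median-of-ratios scaling (limma adjusted p = 0.00168). Its difference was farther from 0 than that of 97% of tested genes.

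Both LTBP genes fell too. LTBP3 averaged 20.1 TPM at the larger and 34.8 TPM at the smaller seedings of CFL, and 0.795 and 2.24 TPM in SFL in the same order. Its difference was -0.85 (SE 0.21, limma adjusted p = 0.0108), -0.55 relative to the median gene. ltbp1 averaged 3.13 and 6.92 TPM in CFL and 6.15 and 10.0 TPM in SFL, a difference of -0.80 (SE 0.15, limma adjusted p = 0.00356), -0.50 relative to the median gene. After median-of-ratios scaling both remained lower, by -0.53 and -0.45 (limma adjusted p of 0.0342 and 0.0165). Within the larger seedings, both genes were higher at 100000 than at 50000 cells in both lines, so their fall did not follow seeding number step by step.

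efemp2a was lower by -0.45 (SE 0.09, limma adjusted p = 0.00488), which is -0.15 relative to the median gene. After median-of-ratios scaling the difference was -0.04 (limma adjusted p = 0.750), so the call was lost with that scaling. After quantile normalization, where the median over all genes was 0.06, efemp2a was still called lower, by -0.28 (limma adjusted p = 0.0223). The call thus depended on the kind of scaling. fbln5 differed by -0.25 (SE 0.30, limma adjusted p = 0.523, 95% interval -0.93 to 0.44) as deposited and by 0.13 once scaled by the median of ratios, and its direction thus depended on the scaling. Of these 5 genes, 4 were called lower, beside 46.2% of all tested genes called lower, 3.48% called higher and 49.7% called in either direction. After median-of-ratios scaling 3 were called lower, beside 22.4% of all tested genes called lower and 46.8% in either direction. The marker sums below, in deposited TPM that hold the same shift of the median gene, also differed between seedings. The exception is the fibroblast and stellate list in SFL, whose ranges overlapped. The fibroblast and stellate list summed to 112 to 132 TPM at the larger and 216 to 223 TPM at the smaller seedings of CFL, and to 200 to 238 TPM and 197 to 273 TPM in SFL in the same order. The endothelial list, mostly kdrl and kdr, summed to 17.5 to 19.95 TPM at the larger and 32.0 to 33.7 TPM at the smaller seedings of CFL, and to 124 to 130 TPM and 184 to 195 TPM in SFL. The smooth muscle list summed to 74.7 to 77.1 TPM at the larger and 91.9 to 99.0 TPM at the smaller seedings of CFL, and ran the other way in SFL, at 439 to 466 TPM and 374 to 379 TPM. Their part in the falls was not tested.

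efemp2b, which is described without a test, averaged 2.48 TPM at the larger and 8.64 TPM at the smaller seedings of CFL, and 16.7 TPM at the larger and 46.5 TPM at the smaller seedings of SFL. The values by density are described from 1 library per line and density, and a difference in pattern between the lines was not tested. After median-of-ratios scaling efemp2b was at 8.53, 6.61, 3.09 and 2.80 in CFL from 10000 to 100000 cells, a step between the smaller and larger seedings. In SFL it was at 58.2, 20.6, 21.0 and 16.8, so the library at 10000 cells stood above the other 3. The difference between larger and smaller seedings in SFL, -1.23 on the log2 scale, was -0.48 without that library and -1.99 without the one at 25000 cells.

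**Figure D3:**
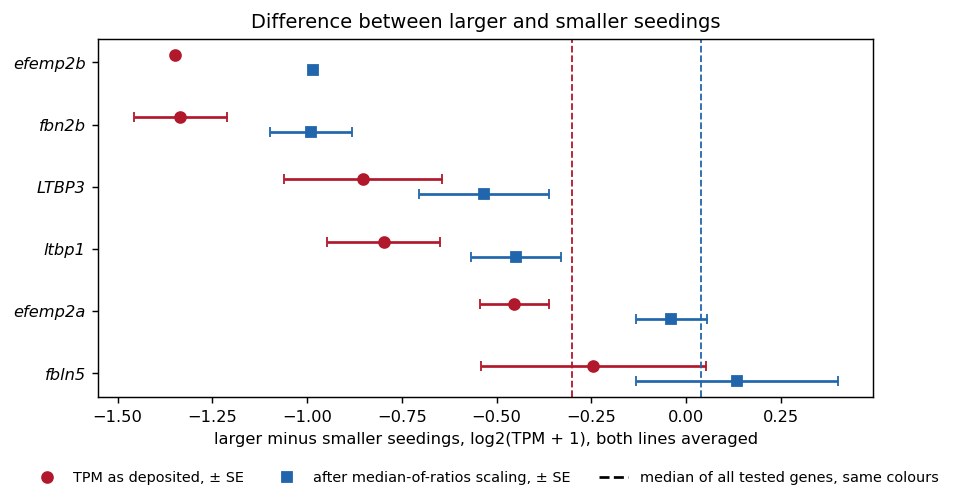
Larger minus smaller seedings on the log2(TPM + 1) scale (horizontal axis), averaged over both lines, for the 6 genes that passed the filter (vertical axis), as deposited (circles) and scaled by the median of ratios (squares), with bars of ± 1 SE for all but efemp2b, which was not tested here. Dashed lines mark the medians of all tested genes (-0.30 and 0.04); fbn2b and efemp2b lie farthest below them and fbln5 lies close to both.

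Within each line the same comparison rests on 2 libraries against 2, with the spread taken from all 8. In CFL, fbn2b (-1.30), ltbp1 (-0.97) and efemp2a (-0.65) were called lower (limma adjusted p of 0.00464, 0.0114 and 0.00860), while LTBP3 (-0.83, limma adjusted p = 0.0583) and fbln5 (0.02, 0.978) did not pass. These 3 of 5 genes compare with 34% of all genes called lower, 2.43% called higher and 36.5% in either direction. After median-of-ratios scaling fbn2b and ltbp1 were called, 2 of 5, beside 16.6% of all genes called lower and 33.3% in either direction. Leaving out the CFL library at 10000 or at 25000 cells left 1 of the 5, fbn2b, while the share of all genes called was 5.15% and 13.8%. The LTBP3 difference in CFL was -0.38 without the CFL library at 50000 cells and -1.29 without the one at 100000 cells (limma adjusted p of 0.299 and 0.00690). After median-of-ratios scaling LTBP3 in CFL was at 31.1, 29.9, 17.6 and 29.1 from 10000 to 100000 cells, so the library at 50000 cells stood below the other 3. In SFL only fbn2b was called (-1.37, limma adjusted p = 0.0132), beside 25.8% of all genes called lower and 27% in either direction. After median-of-ratios scaling it was again the 1 gene called, beside 9.57% called lower and 19% in either direction. Its limma adjusted p as deposited was 0.0896, 0.0510 and 0.0796 without the SFL library at 10000, 25000 and 50000 cells, where 0.00727%, 0% and 0.101% of all genes were called. LTBP3 and ltbp1 were lower in SFL by -0.87 and -0.63 without passing (limma adjusted p of 0.0602 and 0.0590), and both passed when the CFL library at 50000 or 100000 cells was left out.

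Whether the lines responded differently to seeding was tested by the interaction of line and seeding size. None of the 5 genes other than efemp2b passed, and none did among all 13783 genes (percent called 0, smallest limma adjusted p = 0.105, with 1132 genes at an unadjusted p under 0.05). The interaction, CFL minus SFL, was -0.40 for efemp2a (95% interval -0.82 to 0.03), 0.07 for fbn2b (-0.50 to 0.64), -0.34 for ltbp1 (-1.03 to 0.35), 0.04 for LTBP3 (-0.92 to 1.0) and 0.54 for fbln5 (-0.83 to 1.91). The intervals of fbln5 and LTBP3 are the widest, and the test does not show that the lines responded alike. For efemp2b, given as a description, the fall was -1.46 in CFL and -1.23 in SFL. FBN1 averaged 0.365 TPM at the larger and 1.25 TPM at the smaller seedings of CFL, and 0.315 TPM at both in SFL. In the unfiltered table its interaction was -0.69 (SE 0.28, limma adjusted p = 0.531).

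When a single straight slope on log2 density was fitted for CFL and SFL together, none of the 5 genes other than efemp2b passed, and none of all genes did (percent called 0, smallest limma adjusted p = 0.0888, with 5026 genes at an unadjusted p under 0.05). The slopes were -0.46 per doubling for fbn2b (SE 0.12, limma adjusted p = 0.0888), -0.25 for LTBP3 (SE 0.12, 0.157), -0.24 for ltbp1 (SE 0.10, 0.127), -0.16 for efemp2a (SE 0.06, 0.0949) and -0.14 for fbln5 (SE 0.12, 0.401), beside a median of -0.10 over all genes. With density as a factor, which does not assume a straight line, the limma F test called LTBP3, ltbp1 and fbn2b (adjusted p of 0.00247, 0.00742 and 0.00125) and 35.9% of all genes (1.84% with a positive and 34% with a negative slope). fbln5 (adjusted p = 0.05001) lay just above the threshold, and efemp2a (0.0792) did not pass.

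Other genes of the elastic fibre, of latent TGF-beta and of cross-linking were then counted. Of 69 further names, 46 were found on 53 genes, and 24 of these passed the filter. No row is named eln, elna or elnb, the names of the elastin genes, though they may be among the genes listed without a name. In the line comparison 6 of the 24 were called higher and 9 lower in CFL, or 62.5% in all, beside 58.9% of all tested genes (27.6% higher, 31.3% lower). Of these calls, 2 higher and 7 lower belong to 9 genes with a mean under 1 TPM in one line, which passed the filter only through the line in which they are high. Among the other 15 genes, 4 were higher and 2 lower. The share of all genes under the same restriction was not computed, so these counts have no background beside them. In the comparison of seedings 1 of the 24 was called higher and 15 lower at the larger ones, beside 3.48% and 46.2% of all tested genes. After median-of-ratios scaling 8 were higher and 11 lower in CFL, beside 31.7% and 31.4% of all tested genes. These counts again include the 9 genes with a mean under 1 TPM in one line, all called in the same direction as before. For the seedings 1 was then higher and 10 lower, beside 24.5% and 22.4%. The median difference of the 24 was -0.14 between the lines and -0.49 between the seedings, beside -0.04 and -0.30 over all tested genes.

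The largest line differences in this list were in emilin1a, tgfb1b, vcana and emilin1b. emilin1a and emilin1b are fish counterparts of EMILIN1, a glycoprotein at the border of elastin and microfibrils in mammals. emilin1a stood at 0.82, 0.62, 0.34 and 0.33 TPM in CFL and at 161, 177, 115 and 141.5 TPM in SFL, a difference of -6.61. It passed the filter only through SFL, so its difference is given without a test. emilin1b stood at 72.2, 79.9, 44.4 and 46.5 TPM in CFL and at 7.95, 6.91, 6.35 and 7.63 TPM in SFL, a difference of 2.87 (SE 0.17, limma adjusted p = 2.46e-06). In every CFL library emilin1b was 88.0 to 141 times as abundant as emilin1a, and in every SFL library emilin1a was 18.2 to 25.6 times as abundant as emilin1b, so the order of this pair was exchanged between the lines, whereas efemp2a stayed above efemp2b in both. The ratios in CFL rest on emilin1a values under 1 TPM, and reads may have been divided between the emilin1 genes as well.

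tgfb1b, a fish counterpart of the growth factor that LTBPs tether, stood at 0.44, 0.14, 0.09 and 0.09 TPM in CFL and at 15.5, 11.55, 6.93 and 8.3 TPM in SFL (difference -3.23, given without a test for the same reason). The other TGF-beta genes of the list did not all follow it. tgfb3 was higher in CFL, at 3.84, 3.76, 1.89 and 1.87 TPM against 0.12, 0.32, 0 and 0.06 TPM in SFL (difference 1.73). tgfb2 differed by -0.77. Both passed the filter only through the line in which they are high, so neither is given a test. tgfb1a differed by -0.05 (SE 0.17, limma adjusted p = 0.821). The more abundant of the pair of genes named vcana, after the fibrillin-binding proteoglycan versican, stood at 9.75, 27.7, 16.3 and 19.2 TPM in CFL and at 271, 129, 152 and 151 TPM in SFL (difference -3.23, SE 0.33, limma adjusted p = 5.43e-05). As both genes carry the same name, reads may have been shared between them. A further pair of genes was picked out after their values were seen. MFAP2, a microfibril component, stood at 4.03, 11.65, 4.89 and 2.12 TPM in CFL and was listed at 0 in all 4 SFL libraries. LOX, the other gene named for lysyl oxidase, stood at 0.31, 0.19, 0 and 0.22 TPM in CFL and at 2.49, 4.05, 3.66 and 2.85 TPM in SFL. Relatives in the list did not all follow these directions. loxl2a and loxl2b were higher in CFL at every density, at no more than 2.26 TPM, and loxl3b overlapped between the lines. Both MFAP4 genes that passed the filter were higher in SFL at every density.

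**Figure D4:**
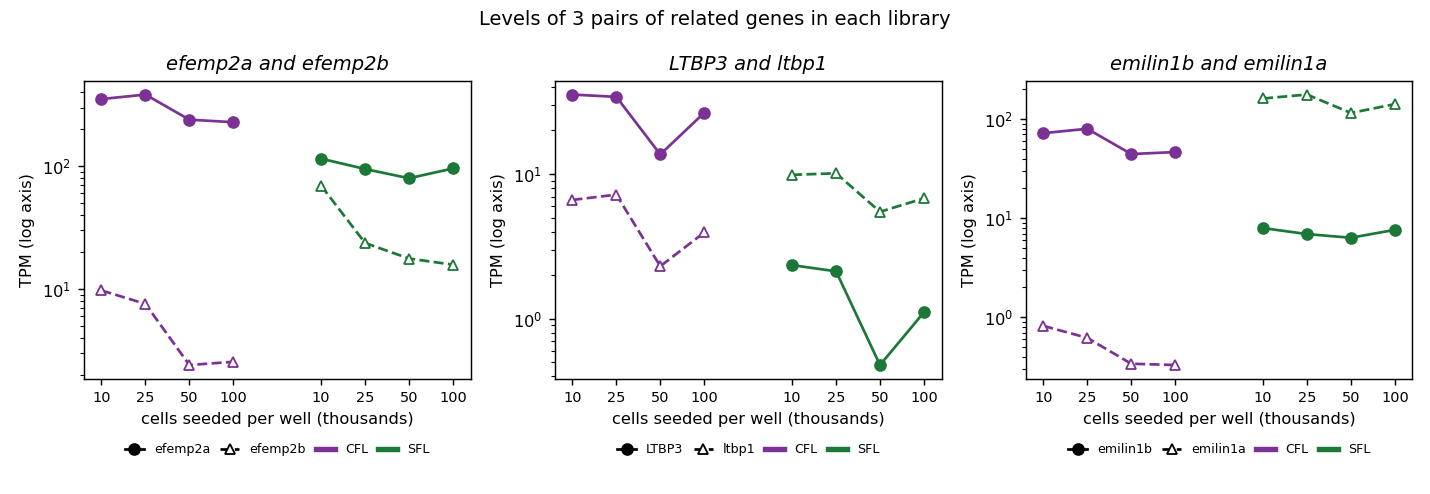
TPM on a log axis against cells seeded per well for 3 pairs of related genes, CFL on the left and SFL on the right of each panel, with filled circles for the first gene and open triangles for the second. efemp2a lies above efemp2b in both lines, by 36.3 to 99.75 times in CFL and 1.66 to 6.08 times in SFL, while the order of LTBP3 and ltbp1 and that of emilin1b and emilin1a is exchanged between the lines.

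The largest differences between seedings in the list were in itgav, atp7a and furina, all lower at the larger seedings. itgav, an integrin alpha chain that in mammals takes part in releasing TGF-beta from its latent form, stood at 54.2, 44.8, 7.27 and 14.3 TPM in CFL from 10000 to 100000 cells and at 18.1, 22.6, 5.44 and 9.40 TPM in SFL (difference -1.77, SE 0.23, limma adjusted p = 0.00119). atp7a, a copper transporter that supplies lysyl oxidases, stood at 12.5, 10.4, 1.76 and 3.28 TPM in CFL and at 11.1, 12.96, 2.90 and 4.18 TPM in SFL (difference -1.69, SE 0.17, limma adjusted p = 0.00102). furina, a protease that cleaves the precursors of TGF-beta and of fibrillins in mammals, stood at 16.3, 16.3, 4.03 and 6.75 TPM in CFL and at 107, 84.3, 23.4 and 32.1 TPM in SFL (difference -1.61, SE 0.17, limma adjusted p = 0.00102). All 3 were lowest at 50000 cells in both lines, as were LTBP3, ltbp1 and fbn2b, and so was the median of all tested genes (these are TPM as deposited).

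**Figure D5:**
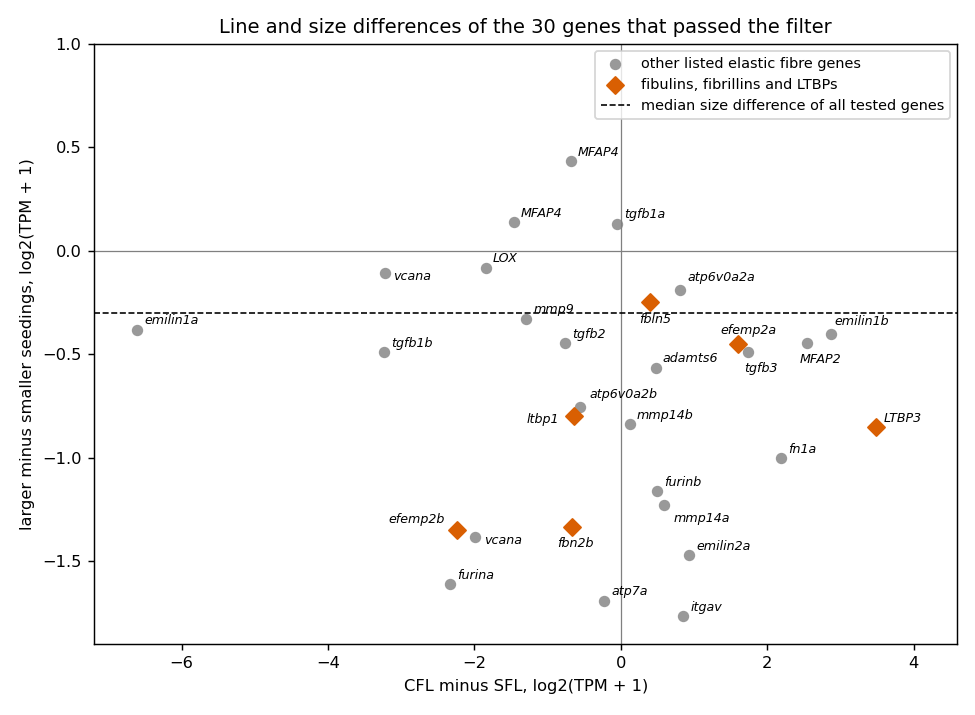
CFL minus SFL (horizontal axis) against larger minus smaller seedings (vertical axis), both on the log2(TPM + 1) scale, for the 6 elastic fibre genes of the main list that passed the filter (diamonds) and the 24 other listed genes that passed the filter (circles). The dashed line marks the median size difference of all tested genes (-0.30); LTBP3 is farthest right among the diamonds, and fbn2b and efemp2b lie lowest among them.

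The likeness of patterns was measured as the root mean square difference of log2(TPM + 1) values over the 8 libraries, each gene centred on its own mean. Among the 6 genes, ltbp1 and fbn2b were most alike (0.31), and LTBP3 and efemp2b least alike (2.91). The a and b copies of efemp2 differed by 2.002 and the LTBP pair by 2.07. Among 10710 other genes with a symbol, the 3 nearest to LTBP3 were zdhhc9 (0.23), pcdh1b (0.24) and ece1 (0.24). The 3 nearest to efemp2b were TMEM100 (0.30), jupa (0.38) and thbs1a (0.40). The 3 nearest to fbn2b were gna13b (0.11), xpo7 (0.12) and map1sa (0.14). These values describe likeness of pattern, not of level, over the same 8 libraries, which also share the shift of the median gene, and carry no test.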

How the data were processed

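Polyadenylated RNA of 8 spheroid libraries (4 CFL, 4 SFL) was sequenced as single reads of 75 bases, per the labels. The deposited values are TPM per gene, and the submitters' processing notes name STAR 2.7.3a and RSEM 1.3.0. The genome build, annotation and strand setting are not given in the sources used here. The 8 value columns were matched to samples by title, with 0 left over. Depth is unknown, so no counting error is given.

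From the TPM, log2(TPM + 1) was computed for genes with a mean of at least 1 TPM (13783 genes) and fitted with limma 3.58.1 in R 4.3.3 (eBayes with trend, two-sided, Benjamini-Hochberg over all tested genes, threshold 0.05). Differences are on that scale and are too small for low genes. The line comparison and slope used line and log2 density. The larger and smaller seedings were compared over 4 groups of line and size. Of the 9 genes found, 6 passed the filter. Alternatives were median-of-ratios scaling, quantile normalization, a pseudocount of 0.1, a filter of 5 TPM, no filter, each library left out, and density as a replicate block. Pairs for the block are the libraries whose titles give the same seeding density. After subtracting each line's mean, the 2 libraries of a pair correlated across genes with r of 0.51, 0.49, 0.64 and 0.31 from 10000 to 100000 cells. Neighbouring densities among the smaller seedings gave like values. There r was 0.52 for CFL at 10000 with SFL at 25000 cells and 0.48 for CFL at 25000 with SFL at 10000. Among the larger seedings r was 0.39 for CFL at 50000 with SFL at 100000 and 0.38 for CFL at 100000 with SFL at 50000. These lay below the pair at 50000 cells and above that at 100000. The correlations thus separate larger from smaller seedings, and only the pair at 50000 cells stood clearly above its neighbours. The code of the fits was run on simulated data with independent noise and planted differences. That setting has no shift of the median gene and no shared cultures, so it cannot check the fits to these libraries.

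The genes, the lists and the tests were chosen with earlier results of these data known. All listed genes are named. From the list of other elastic fibre genes, the 4 with the largest line difference and the 3 with the largest difference between seedings among called genes are named, and for patterns the 3 nearest genes of the 3 members with the largest range (efemp2b is among them). No sequences or coordinates are given, as no genome was used here.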

Additional observations from a re-analysis of the deposited data

Results flagged for a closer look

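In 16 groups of 4 libraries (each gene within a line, where its values were not all 0) the gap between an extreme library and its nearest neighbour was set against the range. In 3 groups it exceeded Dixon's 95% critical value, which served here as a cut-off and not as a test. Chance flags about 1 in 20 groups of true replicates, and libraries of a line differ in density, so these are not replicates. efemp2b in SFL stood at 69.25 TPM at 10000 cells, against 23.7, 17.7 and 15.8 TPM at the other densities. The gene was chosen on its values by density, so this flag is a description only. fbln1 stood at 0.03 TPM in 1 library of each line and was listed at 0 in the other 3. With 3 values at 0 the gap equals the range, so both flags of fbln1 were fixed in advance.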

How the results depend on the processing

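The line differences of LTBP3, efemp2a and efemp2b kept their direction and call under all 16 alternatives computed for each (3.28 to 4.21, 1.498 to 1.84 and -2.47 to -2.06), and those of vcana and emilin1b did too. The number of the 6 genes called between CFL and SFL was 3, beside 58.9% of all genes. It was 5 after median-of-ratios scaling (63.1% of all genes), 5 after quantile normalization (64.2%), 5 with libraries paired by density as a replicate block (71.2%), 5 with line taken over the 4 groups of line and size (68.8%), and 6 with the replicate block and median-of-ratios scaling together (71.4%), a setting added after the data were seen. It ran from 3 to 5 when each library was left out, beside 51.7% to 60.5% of all genes. The block was fitted for this comparison only. In the deposited TPM it changed no call among the 6 genes but those of ltbp1 and fbn2b. Together with median-of-ratios scaling, fbln5 was called as well (difference 0.45, SE 0.17, limma adjusted p = 0.0457). For the slope on density, 0 of 5 genes were called, beside 0% of all genes. With density as a factor, the F test called 3 of 5, beside 35.9%. Between larger and smaller seedings 4 of 5 were called, beside 49.7% of all genes, and 3 to 4 under every alternative. That share itself ran from 29.6% with no filter to 52.1% with a filter of 5 TPM. In CFL 3 of 5 were called, beside 36.5% of all genes, and 1 to 4 with each library left out. In SFL 1 of 5 was called, beside 27% of all genes, 2 with a pseudocount of 0.1, and 0 to 3 with each library left out. The share of all genes called within a line also changed with the library left out, as given above. None of 5 was called for the interaction, nor under any alternative run for it.

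Directions turned where a difference had not passed or, for efemp2b, was not tested. fbln5 turned to 0.0018 for the slope after quantile normalization, and to 0.13 and 0.21 between seedings after median-of-ratios scaling and quantile normalization. With each library left out it ran from -0.28 to 0.047 for the slope, from -0.57 to 0.0813 between seedings, from -0.32 to 0.37 in CFL, from -1.17 to 0.14 in SFL and from -0.11 to 1.19 for the interaction. efemp2a between seedings in SFL turned to 0.14 after median-of-ratios scaling. The interaction of fbn2b turned to -0.0385 with a pseudocount of 0.1. With each library left out it ran from -0.0754 to 0.22, that of LTBP3 from -0.41 to 0.50 and that of efemp2b from -0.98 to 0.53. The cause of these changes was not tested. Depth is unknown, so values under 1 TPM carry an error that cannot be given. These include most values of FBN1, all of fbln1 and loxa, LTBP3 in SFL at 50000 cells, and emilin1a and tgfb1b in CFL. Ratios built on them share that error.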
